A study of Homo sapiens with 6 samples.

Results

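Aminoacyl-tRNA synthetases are the enzymes that load each amino acid onto its transfer RNA, and the 36 human genes described here encode 20 cytosolic and 16 mitochondrial ones. They were taken by name, from a list of synthetase symbols in GENCODE release 29, among 19940 protein-coding genes. A peak was counted for a gene when its midpoint lay inside the gene on the same strand. In this way 43 of 3660 SF3B4 peaks and 0 of 270 G4PID peaks fell in synthetase genes. The SF3B4 peaks lay in 13 of the 36 genes and, with few exceptions, at the downstream ends of introns.

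Synthetases fall into classes I and II, which have unrelated catalytic folds. Several cytosolic enzymes assemble, with the scaffold proteins AIMP1, AIMP2 and EEF1E1, into the multisynthetase complex. The mitochondrial enzymes are also encoded in the nucleus, transcribed and spliced there, and imported into the organelle. GARS and KARS each make a cytosolic and a mitochondrial enzyme from 1 gene. SF3B4 belongs to SF3b, the part of the U2 small nuclear ribonucleoprotein that contacts pre-mRNA around the branch point, the adenosine upstream of the intron's end that attacks the 5' splice site in the first step of splicing.

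The libraries were eCLIP libraries of HEK293T, a human embryonic kidney line carrying the SV40 large T antigen, with 2 libraries for G4PID, 2 for SF3B4 and 2 for input. eCLIP recovers the RNA that a protein contacts by immunoprecipitation and compares it with input RNA. G4PID is an artificial biotin ligase targeted to G-quadruplexes, encoded on a transfected plasmid and pulled down by its HA tag, while SF3B4 was pulled down with an antibody to the protein itself. The protocol shared by all 6 samples names transfection with the G4PID plasmid or a miniTurboID plasmid and 500 µM biotin for 30 min, and does not say which of these the SF3B4 and input cells received. For each antibody the deposited data are 1 list of peaks with no value per library. The spread between replicates and the read depth are therefore unknown, and all counts below describe these lists. The value called log2 fold below is the authors' own per peak, taken to be its log2 fold over input from the column's place and range, and likewise the −log10 p. Genome positions refer to build hg38.

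The peaks can be read against the letters at the ends of synthetase introns. An intron is called bound here when a peak midpoint lay within 100 nt of its 3' splice site, the junction with the next exon. Sequence was known for 10 of the 39 bound intron ends, those that an annotated GENCODE transcript runs through, and in all 10 the intron ended in AG. The 6 printed here are the introns of highest fold in IARS, MARS and VARS2 for which sequence was known, 1 VARS intron with a narrow peak, 1 SARS2 intron whose peak runs into the exon, and the YARS intron whose peak lies farthest from the splice site. Each line gives the last 70 nt of the intron and the first 10 nt of the next exon, 5' to 3', and capitals mark the bases inside the deposited peak.
IARS intron 22: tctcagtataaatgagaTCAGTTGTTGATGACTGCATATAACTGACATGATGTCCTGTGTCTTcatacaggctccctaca
MARS intron 2: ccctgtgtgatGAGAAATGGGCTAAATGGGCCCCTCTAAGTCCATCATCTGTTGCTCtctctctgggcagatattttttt
VARS intron 21: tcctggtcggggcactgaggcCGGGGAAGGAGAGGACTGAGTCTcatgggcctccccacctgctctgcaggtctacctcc
VARS2 intron 10: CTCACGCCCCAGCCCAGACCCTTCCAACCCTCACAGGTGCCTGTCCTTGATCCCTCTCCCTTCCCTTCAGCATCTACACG
SARS2 intron 11: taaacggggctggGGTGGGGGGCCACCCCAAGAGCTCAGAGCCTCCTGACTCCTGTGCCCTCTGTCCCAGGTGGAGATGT
YARS intron 9: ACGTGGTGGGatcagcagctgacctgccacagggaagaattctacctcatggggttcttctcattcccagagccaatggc
These windows are, in order, chr9:92250825-92250904, minus strand; chr12:57489197-57489276, plus strand; chr6:31781114-31781193, minus strand; chr6:30919688-30919767, plus strand; chr19:38917824-38917903, minus strand; and chr1:32781136-32781215, minus strand.
Human branch points are commonly preceded by a T at the second base before the adenosine, a pattern written here as the motif CTNA. It stood 18 to 45 nt upstream of the exon in 8 of the 10 sequences, and in 7 of them inside the peak. Over the introns of all protein-coding genes with known sequence, 52.5% of 25166 had it in that stretch. Most peaks were centred in the same stretch, so a motif there often falls inside the peak. The first such A was 26 nt upstream in IARS intron 22, 32 nt in MARS intron 2 and 38 nt in VARS2 intron 10. In YARS intron 9 the motif A lay 22 nt upstream, downstream of the peak. A match describes these letters and does not show that a branch point is used.

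SF3B4 peaks were found in 10 of 20 cytosolic and 3 of 16 mitochondrial synthetase genes. Together these 13 of 36 genes make 36.1%, and over all protein-coding genes 9.36% had a peak. With peaks of a −log10 p of at least 10 alone, 8 of the 36 genes (22.2%) and 4.31% of all protein-coding genes had one. The cytosolic genes with a peak were AARS, CARS, HARS, IARS, LARS, MARS, QARS, RARS, VARS and YARS, and the mitochondrial ones were AARS2, SARS2 and VARS2. All 13 had at least 10 introns in the transcript used here, a limit chosen after the values were seen. Of the synthetase genes with 10 or more introns 13 of 30 had a peak (43.3%), and of the other protein-coding genes with as many 1224 of 7127 did (17.2%). Of those with fewer, 0 of 6 synthetase genes and 630 of 12777 other genes (4.93%) had one. RNA amount was not measured in these lists, and its part in which genes have a peak was not tested.

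Peaks in cytosolic genes were unevenly divided between the enzyme classes. Of the 10 cytosolic genes of class I, counting EPRS, whose product carries a domain of each class, 8 had a peak, with 21 of 224 introns bound (9.38%). Of the 10 of class II, AARS and HARS had one, with 3 of 145 introns bound (2.07%). In the mitochondrial genes the order was the other way, with a peak in 1 of 9 class I and 2 of 7 class II genes. For comparison, 9.36% of all protein-coding genes had a peak and 1.68% of their introns were bound. No test was made of either division.

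**Figure D1:**
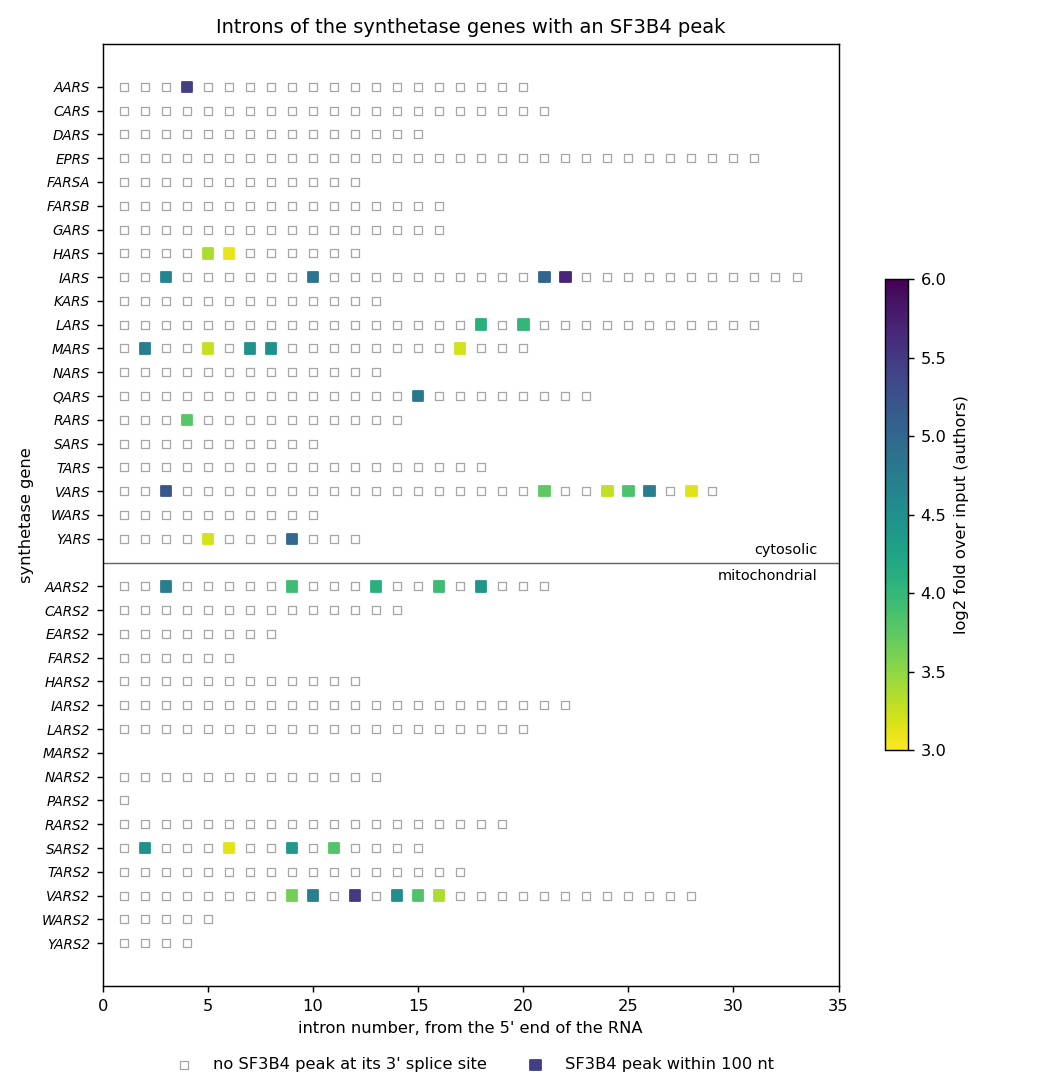
Introns of the 36 synthetase genes in order from the 5' end (x axis, intron number), 1 row per gene with cytosolic genes above mitochondrial ones. Filled squares are the 39 introns with an SF3B4 peak midpoint within 100 nt of the 3' splice site, coloured by the authors' log2 fold, and no square is filled at intron 1 or at the last intron of any gene.

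The multisynthetase complex contributed 5 genes with a peak out of 8 (62.5%), with 7.22% of introns bound. Of the 12 cytosolic genes outside the complex 5 had a peak (41.7%), with 5.82% of introns bound. Over all protein-coding genes the shares were 9.36% and 1.68%, and the difference between the 2 sets was not tested. IARS, the isoleucine enzyme, had 5 peaks, and its intron 22 held the highest log2 fold over input of any synthetase peak, 5.69 (chromosome 9, 92250842 to 92250887). Its midpoint was 30 nt upstream of the 3' splice site. The neighbouring intron 21 had a peak at 5.05 (92251911 to 92251940, 40 nt upstream) and intron 10 one at 4.86 (92271675 to 92271720, 42 nt upstream). The IARS peak in intron 3 stood at 4.64 (92287921 to 92287953, 27 nt upstream). The fifth, at 4.58 (92250425 to 92250502), lay inside intron 23 but 174 nt upstream of its end, and no annotated transcript of the gene has a nearer 3' splice site. All 5 IARS values were above 3.92, the median of the SF3B4 peaks outside synthetase genes.

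MARS, the methionine enzyme, also had 5 peaks, each at a different intron on chromosome 12. Introns 2 (57489208 to 57489253, 37 nt upstream), 7 (57498108 to 57498137, 35 nt) and 8 (57498370 to 57498402, 34 nt) had log2 folds of 4.74, 4.47 and 4.47. Introns 7 and 8 are neighbours of very different size, 7512 and 146 nt. MARS intron 5 stood at 3.26 (57490135 to 57490185, 47 nt upstream). At intron 17, which is 91 nt long, a peak of 94 nt (57515097 to 57515190) at log2 fold 3.20 had its midpoint 7 nt upstream and covered 41 nt of the next exon.

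The other genes of the complex had fewer peaks. LARS, the leucine enzyme, had peaks at introns 18 and 20 (log2 folds 4.09 and 4.01), 37 and 49 nt upstream. QARS, the glutamine enzyme, had 1, at intron 15 (4.79, chromosome 3, 49099662 to 49099699, 33 nt upstream). RARS, the arginine enzyme, had 1, at intron 4 (3.79, 37 nt upstream). DARS, EPRS and KARS, for aspartate, for glutamate and proline, and for lysine, had none, although EPRS has 31 introns.

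VARS, the valine enzyme of the cytosol, had 6 peaks at 6 of its 29 introns, the most of any cytosolic gene. Of the 6, 5 lay between introns 21 and 28. The highest was at the 90-nt intron 3, with a log2 fold of 5.20 (chromosome 6, 31792923 to 31792946, 39 nt upstream). Introns 24, 25 and 26 were bound in a row at 3.28 (31780552 to 31780648), 3.85 (31780166 to 31780200) and 4.74 (31779852 to 31779883), with midpoints 32, 30 and 53 nt upstream. Intron 21 stood at 3.74 (31781150 to 31781172, 38 nt upstream). At intron 28 the peak was 159 nt wide (31779218 to 31779376, 3.15), reached 75 nt into the exon, and had its midpoint 5 nt upstream of the junction.

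Among the remaining cytosolic genes, AARS, the alanine enzyme, had a single peak at intron 4 with log2 fold 5.44 (chromosome 16, 70271981 to 70272024, 30 nt upstream). HARS, the histidine enzyme, had peaks at the adjacent introns 5 and 6 with log2 folds of 3.37 and 3.10, both with midpoints 24 nt upstream. YARS, the tyrosine enzyme, had a peak at intron 5 (3.20, 37 nt upstream) and one in intron 9 (4.98, chromosome 1, 32781206 to 32781233). The intron 9 peak had the smallest p of all synthetase peaks, with a −log10 p of 38.2 that ranked 83 in the list, and its midpoint lay 74 nt upstream of the exon. The single peak of CARS, the cysteine enzyme, was in intron 11 (4.01, chromosome 11, 3018833 to 3018905), 120 nt upstream of the 3' splice site. CARS was thus the 1 gene with a peak but no bound intron.

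**Figure D2:**
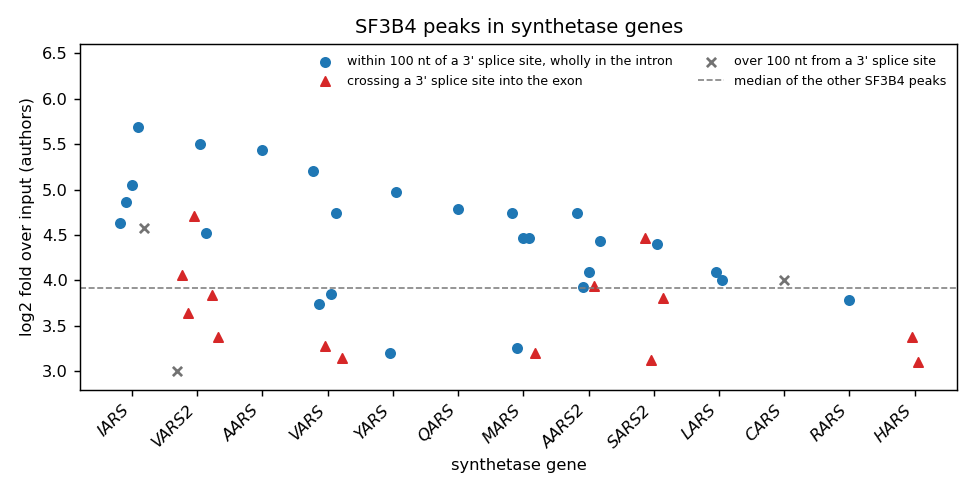
The authors' log2 fold over input (y axis) of the 43 SF3B4 peaks in the 13 synthetase genes that had one, in order of each gene's highest peak. Circles are peaks wholly in the intron within 100 nt of a 3' splice site, triangles cross the splice site into the exon, crosses lie over 100 nt from one, and the dashed line at 3.92 is the median of the other SF3B4 peaks. IARS, VARS2, AARS and VARS hold the highest peaks, and the HARS and RARS peaks lie below the line.

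The mitochondrial peaks were held by 3 genes with 17 peaks in all. VARS2, the mitochondrial valine enzyme, had 8, more than any other synthetase gene, all on chromosome 6. Its highest, at intron 12, had a log2 fold of 5.50 (30920286 to 30920327, 27 nt upstream) in an intron of 116 nt. Introns 9 (3.64, 30918744 to 30918843) and 10 (4.71, 30919678 to 30919770) were bound with midpoints 34 nt upstream in each. Introns 14, 15 and 16 were bound in a row. Intron 14 stood at 4.53 (30920994 to 30921026, 55 nt upstream). The intron 15 peak at 3.84 (30921174 to 30921292) had its midpoint 3 nt inside the exon, and the intron 16 peak at 3.37 (30921542 to 30921623) lay 7 nt upstream.

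The first 2 peaks of VARS2 lay in the part where its annotated first exons differ between transcripts. One, at 4.06 (30914761 to 30914838), was centred 6 nt before a 3' splice site that other VARS2 transcripts use, and within exon 1 of the transcript used for counting. The other (30914388 to 30914502), 360 nt upstream of that site, had a fold just above 3, at rank 3658 of the 3660 in the list.

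AARS2, the mitochondrial alanine enzyme, had 5 peaks at introns 3, 9, 13, 16 and 18. Their positions on chromosome 6 were 44311169 to 44311201, 44305802 to 44305831, 44304327 to 44304378, 44302884 to 44302996 and 44302182 to 44302219. The log2 folds were 4.74, 3.93, 4.09, 3.94 and 4.44 in the same order. Midpoints were 24 nt upstream at intron 3, 31 nt at intron 13 and 30 nt at the others, so that these 5 peaks sat at nearly 1 distance. SARS2, the mitochondrial serine enzyme, had 4 peaks at introns 2, 6, 9 and 11 (4.47, 3.13, 4.40 and 3.81), 11 to 30 nt upstream. All 4 also lie within AC011455.2, a gene annotated across SARS2 on the same strand, and the lists cannot tell the transcripts of the 2 genes apart.

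Cytosolic enzymes were also compared with their mitochondrial counterparts. Of 13 pairs whose symbols differ by the final 2, the alanine and valine pairs had peaks in both genes. In 7 pairs, those for cysteine, histidine, isoleucine, leucine, methionine, arginine and tyrosine, the cytosolic gene had peaks and the mitochondrial one did not. The serine pair was the 1 with peaks in the mitochondrial gene alone, and the asparagine, threonine and tryptophan pairs had none. Over all protein-coding genes 9.36% had a peak. MARS2 has 0 introns in the annotation, so that pair cannot be compared at introns. Fewer introns than in the cytosolic gene were also found in YARS2 (4 against 12), CARS2 (14 against 21), IARS2 (22 against 33) and LARS2 (20 against 31). HARS2 has as many as HARS (12), and RARS2 has more than RARS (19 against 14). The difference between the genes of a pair was not tested.

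The remaining 23 genes had no SF3B4 peak. In the cytosolic set these were DARS, EPRS, FARSA, FARSB, GARS, KARS, NARS, SARS, TARS and WARS, and in the mitochondrial set CARS2, EARS2, FARS2, HARS2, IARS2, LARS2, MARS2, NARS2, PARS2, RARS2, TARS2, WARS2 and YARS2. FARSA and FARSB encode the subunits of 1 cytosolic phenylalanine enzyme, and neither had a peak. A gene without a peak is one where no region passed the authors' thresholds, which does not show that it was unbound.

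Most peaks in synthetase genes sat shortly upstream of a 3' splice site, as did most SF3B4 peaks of other genes. Branch points themselves were not mapped. Of the 43, 34 (79.1%, 95% Wilson interval 64.8 to 88.6%) were centred 10 to 60 nt before the closest annotated 3' splice site. Among SF3B4 peaks of other protein-coding genes the share was 2372 of 3437 (69.0%, 67.4 to 70.5%). The interval covers counting error only. For the 40 synthetase peaks no more than 100 nt from a site, the midpoint lay at a median of 30.5 nt upstream with quartiles of 24 and 37 nt, and for 3040 peaks of other genes at 30 nt with quartiles of 16 and 40 nt.

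**Figure D3:**
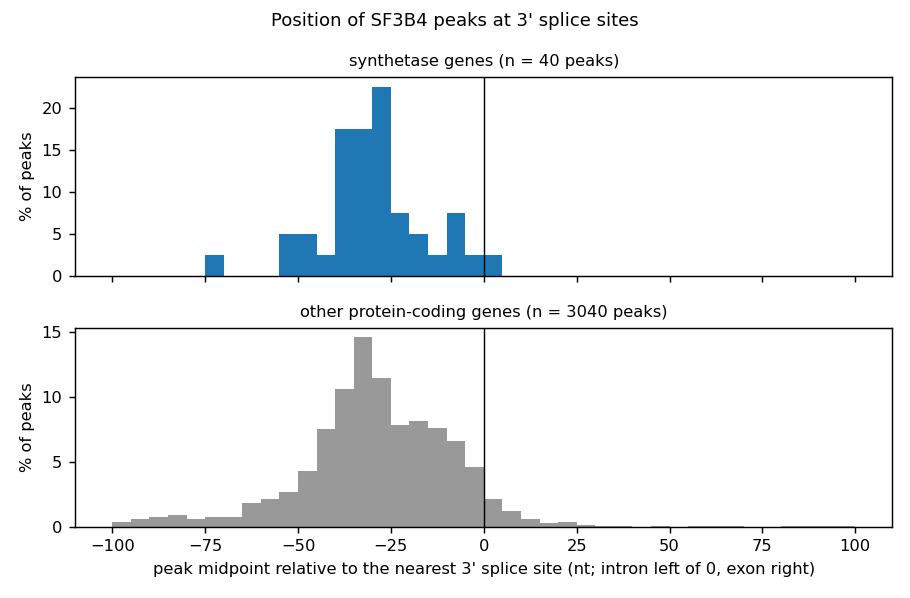
Peak midpoints relative to the nearest 3' splice site (x axis, nt, intron to the left of 0) as a percentage of peaks per 5-nt bin, for 40 synthetase peaks (above) and 3040 peaks of other protein-coding genes (below). Both distributions are highest about 30 nt upstream, at medians of 30.5 and 30 nt.

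Among synthetase peaks, wide ones ran across the splice site and narrow ones stayed in the intron. Whether a peak crosses follows from its width and its midpoint's distance from the site, so crossing and width are not independent. In synthetase genes 14 of the 40 peaks near a 3' splice site crossed it into the exon (35%), against 1570 of 3040 in other genes (51.6%). The 14 were 65 to 159 nt wide with a median of 93 nt, and the 26 that stayed in the intron were 23 to 52 nt wide with a median of 34.5 nt, so the 2 groups did not overlap in width. The median log2 fold was 3.51 for crossing peaks and 4.50 for those within the intron. In other genes crossing peaks had a median width of 94 nt (23 to 284 nt) and a median log2 fold of 3.69. Peaks within the intron had 45 nt (21 to 192 nt) and 4.34 there, so in other genes the widths overlapped widely. Of the 4 SARS2 peaks 3 crossed, as did both HARS peaks, whereas the peaks of AARS, CARS, IARS, LARS, QARS, RARS and YARS all stayed in the intron. Over all peaks, synthetase peaks had a median width of 47 nt and other SF3B4 peaks 71 nt.

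**Figure D4:**
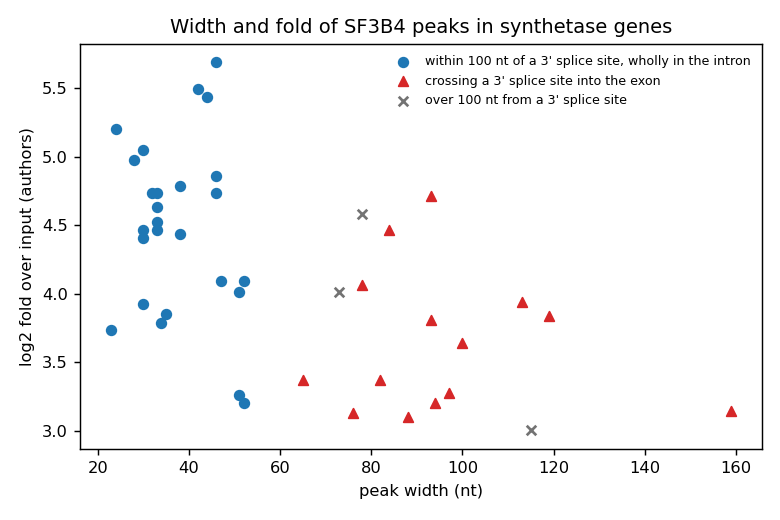
Width (x axis, nt) and authors' log2 fold over input (y axis) of the 43 SF3B4 peaks in synthetase genes. Triangles, the 14 peaks that cross a 3' splice site, begin at 65 nt, whereas circles, the 26 peaks wholly in the intron, end at 52 nt and reach the highest folds, up to 5.69.

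SF3B4 was found on 39 of the 574 introns of the synthetase genes (6.79%), beside 1.68% of the introns of all protein-coding genes. With peaks of a log2 fold of at least 4 alone, these were 22 of 574 (3.83%) and 0.783%. Within genes that had a peak, 39 of 279 synthetase introns (14.0%, 95% Wilson interval 10.4 to 18.5%) and 3121 of 28240 introns of other genes (11.1%, 10.7 to 11.4%) were bound. These intervals treat introns as independent, which those within 1 gene are not, so they may be too narrow. By gene the share was highest in SARS2 (26.7%), MARS (25%), AARS2 (23.8%), VARS2 (21.4%) and VARS (20.7%), and lowest among genes with a bound intron in QARS (4.35%) and AARS (5%). In the transcripts used here, 0 of 13 first introns and 0 of 13 last introns were bound (95% Wilson intervals up to 22.8%). In other genes with a peak 11.8% of first and 9.94% of last introns were bound. Such shares come to fewer than 2 of 13 introns, so the counts of 0 do not set the synthetases apart. The VARS2 peak at a 3' splice site of other transcripts, in the part with differing first exons, is not in these counts. Of the 39 bound introns 14 were next to another bound one (35.9%), in the runs of VARS, VARS2, IARS, MARS and HARS given above. In other genes the share was 30.4%. Among genes with 2 or more bound introns the order turned, with 14 of 36 bound introns (38.9%) in synthetase genes and 950 of 2133 (44.5%) in other genes, so these shares set the synthetases apart in neither direction.

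The bound introns tended to be short, and so did the introns of the genes that had peaks. Bound synthetase introns had a median length of 282 nt (quartiles 150 and 980 nt), from 87 nt at SARS2 intron 11 to 7512 nt at MARS intron 7. Unbound introns of the same genes had a median of 566 nt (158 and 1861 nt), and introns of the 23 genes with no peak 1714 nt (664 and 4151 nt). In other genes with a peak the medians were 586 nt for bound and 872 nt for unbound introns. The ranges overlapped widely, and no test was made. Introns were counted singly, though those within 1 gene are not independent of each other.

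By gene, 9 of the synthetase genes had a median intron under 500 nt, a limit chosen after the values were seen. Of these 9, HARS, MARS, QARS, VARS, AARS2, SARS2 and VARS2 had peaks and held 31 of the 43, while FARSA and HARS2 had none. Of the 26 genes with longer introns 6 had peaks (23.1%). In other protein-coding genes 648 of 3075 with a median intron under 500 nt had a peak (21.1%), and 1203 of 15659 with a longer one (7.68%).

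**Figure D5:**
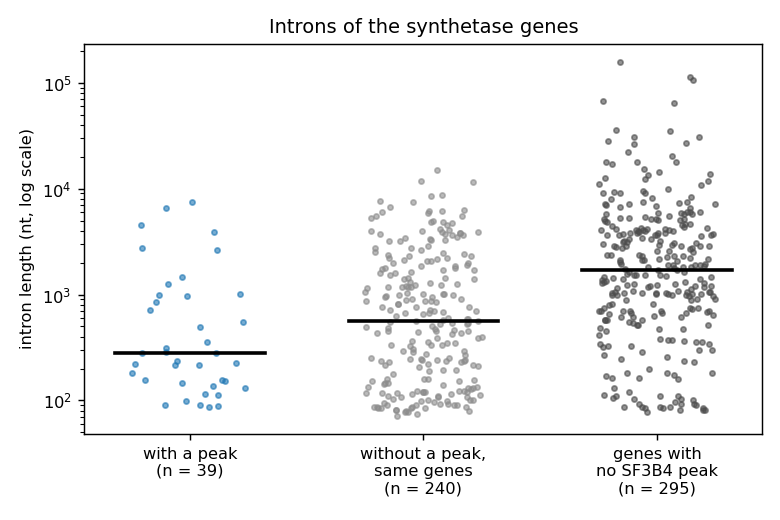
Length of synthetase introns (y axis, nt, log scale) for the 39 introns with an SF3B4 peak at the 3' splice site, the 240 other introns of the same genes, and the 295 introns of synthetase genes with no peak. Each point is an intron and the bar is the median, 282, 566 and 1714 nt from left to right.

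The bound introns were also compared for annotation and sequence. The next exon was one that another annotated transcript skips for 5 of 39 bound introns (12.8%) and 47 of 240 unbound ones of the same genes (19.6%). Another transcript retained 7 of the 39 bound introns (17.9%) and 31 of the 240 unbound ones (12.9%). In other genes with a peak 24.5% of bound and 8.61% of unbound introns were retained in another transcript. Of the last 40 nt, pyrimidines made up a median of 57.5% in the 12 bound synthetase introns whose last 45 nt were known, 65% in 61 unbound ones of the same genes and 62.5% over 25166 introns of all protein-coding genes. The motif CTNA stood 18 to 45 nt upstream of the exon in 9 of those 12 (75%), in 34 of the 61 (55.7%) and in 52.5% of the 25166. Its reverse complement, TNAG, which overlaps it in CTNAG, stood there in 58.3%, 34.4% and 31.1%. In other genes with a peak, CTNA stood there in 55.2% of 1434 bound and 53.3% of 4593 unbound introns with known sequence. TNAG did so in 29.8% and 33% of them. Bound and unbound introns of other genes thus differed little in CTNA. With 12 sequences the shares of bound synthetase introns are rough, and no difference was tested.

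Synthetase peaks reached a log2 fold of 5.69 in a list that reached 7.60. Their median log2 fold was 4.09 (quartiles 3.69 and 4.73, 43 peaks), and that of the other 3617 SF3B4 peaks was 3.92 (3.51 and 4.54). The median −log10 p was 8.54, and 8.94 in the others. Above the median fold of the others stood 27 of the 43 (62.8%). Among the 366 highest peaks of the list 4 were in synthetase genes, IARS intron 22, VARS2 intron 12, AARS intron 4 and VARS intron 3, which is 9.30% of the synthetase peaks, where the 366 are the top 10% of the list. Many peaks carried the same pair of fold and p as another peak: 40 of the 43 synthetase peaks (93.0%) and 3200 of the 3617 others (88.5%) did. The peaks at MARS intron 2, VARS intron 26 and AARS2 intron 3 were among 36 peaks of the list with 1 and the same pair (log2 fold 4.74, −log10 p 7.01). Differences in rank between such peaks carry no information.

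Other genes linked to tRNA, from its processing and charging to its use in translation, were counted in the same way. Of 20 such genes, 3 had an SF3B4 peak (15%), beside the 9.36% of all protein-coding genes. EEF1A1, whose product carries charged tRNA to the ribosome, had 4 peaks with a highest log2 fold of 6.96. ELAC2, which encodes the enzyme that trims the 3' ends of tRNA precursors, had 2 (highest 4.45), and SECISBP2, whose product acts in selenocysteine insertion, had 1 (4.34). The complex scaffolds AIMP1, AIMP2 and EEF1E1 had none, nor did EEF1A2, the mitochondrial elongation factor gene TUFM, QRSL1, GATB, GATC, MTFMT, PSTK, SEPSECS, TRNT1, XPOT, DTD1, DTD2, AARSD1 or RTCB.

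The G4PID list had no peak in any of the 36 synthetase genes or the 20 other tRNA-linked genes. Over all protein-coding genes 101 of 19940 had a G4PID peak (0.507%), a share at which fewer than 1 of 36 genes would have one, so the count of 0 does not set the synthetases apart. Near SF3B4 peaks, a quadruplex motif (4 tracts of 3 or more G, separated by 1 to 7 other bases) was searched in the 10 synthetase peaks whose sequence was known with 50 nt on either side. It was found in 0 in sense, and in 1 on the opposite strand, at VARS2 intron 10. In other SF3B4 peaks the shares were 3.96% in sense and 5.73% on the opposite strand.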

How the data were processed

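eCLIP was done in HEK293T cells, with 2 G4PID, 2 SF3B4 and 2 input libraries. The submitters' processing notes name cutadapt 3.4, STAR 2.7.0d, hg19 and hg38. Not stated in the labels or files are how peaks were called and filtered, how duplicate and multiply mapping reads were treated, and how both replicates were joined. For each antibody the authors deposited 1 list, without a header. The −log10 p-value of a peak was taken from column 4, where the authors' SF3B4 values run from 5.08 to 400. The log2 fold over input was taken from the next column, where all of the authors' values are above 3. These units are inferred from the usual eCLIP layout and the ranges, and were used only within a list.

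Introns came from 1 coding transcript per gene of GENCODE release 29 (APPRIS principal, then longest coding sequence), and 3' splice sites for distances from the basic set. Intron ends were read from annotated transcripts (206694 sequences, 0 length mismatches) where 1 exon covered them. Members and lists were chosen with earlier results of these data known. All 36 members are named. Positions are given for those with the 8 highest peaks or the 5 largest numbers of peaks, and for peaks outside the 10 to 60 nt stretch. No test was made across genes or introns. The distance and intron steps were checked on artificial gene models. These held no intron under 200 nt, whereas 14 of the 39 bound introns are that short, so the check does not cover those. Python 3.11.15, numpy 2.4.6, scipy 1.17.1 and matplotlib 3.10.9 were used.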

Additional observations from a re-analysis of the deposited data

How the results depend on the processing

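The number of synthetase genes with an SF3B4 peak, 13, was 13 with any overlap in place of the midpoint, 11 at a log2 fold of at least 4, and 8 at a −log10 p of at least 10. It was 12 without the SARS2 peaks that also lie in AC011455.2, and 12 when a peak within 100 nt of a 3' splice site was required, which leaves out CARS (both chosen after seeing the data). The G4PID count was 0 under each alternative. The number of bound introns, 39, was 22 at a log2 fold of at least 4, since fewer peaks enter, and 40 were counted both with midpoints inside introns and with all basic transcripts. The share of peaks 10 to 60 nt upstream of a 3' splice site, 79.1%, was 90.7% for 0 to 100 nt and 62.8% when the peak's 5' end was used. It was 84.0% at a log2 fold of at least 4, and 85.7% without VARS2, an alternative chosen after seeing the data. The median intron length was 282 or 298 nt under its alternatives. The median log2 fold was 4.74 with the highest peak of each gene, in place of 4.09. No paired analysis was possible because each list joins both libraries, and for the same reason no replicate could be left out. The lists give no depth, so a gene without a peak may have had too few reads.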
